A study of Homo sapiens with 38 samples.

Results

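The 7SL and vault RNA entries were the features that the deposited count table classes as SRP_RNA or vault_RNA, limited to the 10 with the highest count summed over all 38 libraries. The table of 90127 features holds 11 of these types, 7 of 7SL RNA and 4 of vault RNA, so the limit left out a single feature, VTRNA1-1, which had 0 counts in every library. The members were therefore all 7 7SL entries and the 3 vault RNA genes VTRNA1-3, VTRNA1-2 and VTRNA2-1. The members were chosen by their summed counts, which are given as a description. VTRNA2-1, the last inside the limit, had a summed count of 23, against 0 for VTRNA1-1 just outside it.

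The libraries were small RNA sequencing libraries of KG1a and HL60, established human acute myeloid leukaemia cell lines of wild-type genotype. RNA came from cells, from large extracellular vesicles (lEV) or from small extracellular vesicles (sEV). From each of these 6 sources, total RNA was sequenced as the input and beside it the RNA enriched by rPAL, a chemistry that oxidizes sialic acid on RNA-linked glycans with periodate and ligates biotin to the aldehyde. Each KG1a cell group had 4 libraries and each of the other 10 groups had 3. Cells for cell RNA grew in medium with 10% FBS, and cells for vesicles were kept without FBS for 2 days, so source and serum cannot be told apart in any comparison of vesicles with cells. The labels do not say that replicates came from separate cultures, so the p-values measure the spread between these libraries, which may be technical. Fewer cells or vesicles and less RNA per cell or vesicle cannot be told apart in such libraries.

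7SL RNA is the RNA scaffold of the signal recognition particle, which binds the signal peptide of a nascent protein, pauses translation and docks the ribosome at the endoplasmic reticulum. Vault RNAs are short non-coding RNAs, part of which sits in the vault, a large hollow ribonucleoprotein particle built from the major vault protein MVP. Both are made by RNA polymerase III, as are the Y RNAs, and both kinds of RNA are often found in extracellular vesicles.

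The vault RNA genes are printed here because they show which longer stretches the genes share. Sequences are from GENCODE release 29 on GRCh38, 5′ to 3′ on the gene's strand. Capitals mark bases that lie in no 18-base stretch shared with another of these 4 genes, and lower case marks shared stretches. A capital base can still match another gene within a stretch shorter than 18 bases.
VTRNA1-3, chr5:140726158-140726246, plus strand: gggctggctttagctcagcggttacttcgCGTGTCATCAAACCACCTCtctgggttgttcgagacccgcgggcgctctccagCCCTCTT
VTRNA1-2, chr5:140718925-140719013, plus strand: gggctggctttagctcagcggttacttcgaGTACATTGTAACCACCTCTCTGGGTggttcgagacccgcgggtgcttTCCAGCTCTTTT
VTRNA1-1, chr5:140711275-140711373, plus strand: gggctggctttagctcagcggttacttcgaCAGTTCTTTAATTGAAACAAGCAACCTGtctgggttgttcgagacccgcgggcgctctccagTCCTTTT
VTRNA2-1, chr5:136080470-136080597, minus strand: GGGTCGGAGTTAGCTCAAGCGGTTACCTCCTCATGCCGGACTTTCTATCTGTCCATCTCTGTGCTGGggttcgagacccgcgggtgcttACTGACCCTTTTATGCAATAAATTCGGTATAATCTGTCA
Each is a non-coding RNA gene. VTRNA1-3 is identical to VTRNA1-2 at 87.8% of aligned positions, to VTRNA1-1 at 83.0% and to VTRNA2-1 at 55.0%. Shared stretches cover 63 of the 89 bases of VTRNA1-3 and 22 of the 128 bases of VTRNA2-1. A read inside a shared stretch fits more than one of the 4 genes. How the authors assigned such reads is not given in the sources used here, so the split of reads among the 4 genes, including the 0 of VTRNA1-1, is uncertain.

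The 7 7SL entries carry RNAcentral identifiers, and the files give neither a gene name, a sequence nor a position for them. The table also lists 680 Ensembl genes and pseudogenes named RN7SL, which together held 3143 counts, against 302928 in the 7SL entries. RN7SL1, the main 7SL gene, had a mean of 3.28 ± 0.68 CPM (the count per 1000000 counts of the library's total; SD, n = 4) in KG1a cell total RNA. No file ties an entry to this gene. The copies of 7SL in the genome are much alike, so reads may be split among entries, and the 7 entries are not treated here as independent genes.

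Depth was 5498168 to 14892937 counts for total RNA and ranged from 2380745 to 15532758 counts for rPAL. Correlation of a library's log2 CPM with the mean of its group's other libraries was 0.929 to 0.995 for total RNA and 0.740 to 0.983 for rPAL, across features. Among the rPAL libraries 3 were chosen as standing apart, after the values were seen. These were KG1a lEV replicate 3 with counts in 7404 features, KG1a sEV replicate 3 with the correlation of 0.740, and HL60 sEV replicate 2 with 40.1% of its counts in PCNA. No single rule set the choice, since HL60 lEV replicate 1 had counts in 7476 features and HL60 sEV replicate 3 a correlation of 0.818. Where a call changes without the 3 chosen libraries, that is said beside it. CD34, carried by KG1a, lay at 1.18 to 4.77 CPM in KG1a cell total RNA and at 0 to 0.14 in HL60. The summed granule mRNAs MPO, ELANE, AZU1 and PRTN3 lay at 2.24 to 4.0 CPM in HL60 cell total RNA and 0 to 0.07 in KG1a. By CD34 and these granule mRNAs, all at low levels, both lines matched their labels. Of 12 marker genes of blood, epithelial, stromal and liver cells that the cultures should lack, 1 to 7 had counts in a group. They summed to 0 to 0.85 CPM in KG1a cell total RNA, 2.01 to 2.57 CPM in HL60 cell total RNA, 0.46 to 1.02 CPM in KG1a lEV, 4.23 to 10.0 CPM in HL60 sEV, and at most 30.3 CPM in any library, in KG1a lEV rPAL. Their part in the results was not tested.

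All 7SL entries together made up 0.0125% to 0.245% of a group's counts on average. In KG1a cell total RNA they lay at 95.9, 138, 189 and 215 CPM over the 4 libraries, and in KG1a cell rPAL at 537, 1292, 1198 and 768 CPM. In HL60 cells total RNA gave 114, 120 and 140 CPM and rPAL 754, 492 and 442 CPM. In cells of both lines every rPAL library was above every total library. The highest group means were in KG1a vesicles, with 2455 ± 407 CPM in lEV total RNA, 2080 ± 569 in lEV rPAL, 1803 ± 1065 in sEV total RNA and 1491 ± 1211 in sEV rPAL (SD, n = 3 each). These 4 groups overlapped one another. HL60 vesicles lay lower, at 342 ± 115 CPM in lEV total RNA, 781 ± 353 in lEV rPAL, 456 ± 186 in sEV total RNA and 603 ± 41.6 in sEV rPAL (SD, n = 3 each). The difference in the 7SL share between rPAL and total RNA, averaged over the 6 sources, was 0.0188 percentage points, with a mean SD between libraries of 0.0401 points. It was 0.00714 to 0.0285 points when 1 library was left out and 0.0786 points with rRNA features left out of the library totals. The difference was positive in KG1a cells and all 3 HL60 sources. In KG1a lEV and sEV it was negative, at -0.0375 and -0.0313 points, and turned positive with rRNA left out, at 0.0238 and 0.102 points. The share of rRNA differed between these groups, at 16.1% to 23.3% in KG1a lEV total RNA and 15.0% to 55.4% in rPAL, and at 25.4% to 43.3% in KG1a sEV total RNA and 58.5% to 63.9% in rPAL.

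The 7SL entries fell into groups by how they moved together, a grouping made after their values were seen. URS000233BC28, the most abundant entry with 87368 counts, is called the lead entry. URS0002345EEB, URS00023473A4 and URS0002347127, with 47290, 47075 and 45955 counts, form a trio whose log2 ratios to each other had SDs of 0.16 to 0.18 over the 38 libraries. URS00023447C5 and URS000233AD7D, with 39784 and 34433 counts, form a pair with an SD of 0.32. URS00009C1356 had 1023 counts, far fewer than the others. The lead entry and URS00023447C5 did not keep a constant ratio, since its log2 value ranged from -0.44 to 5.23.

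**Figure D1:**
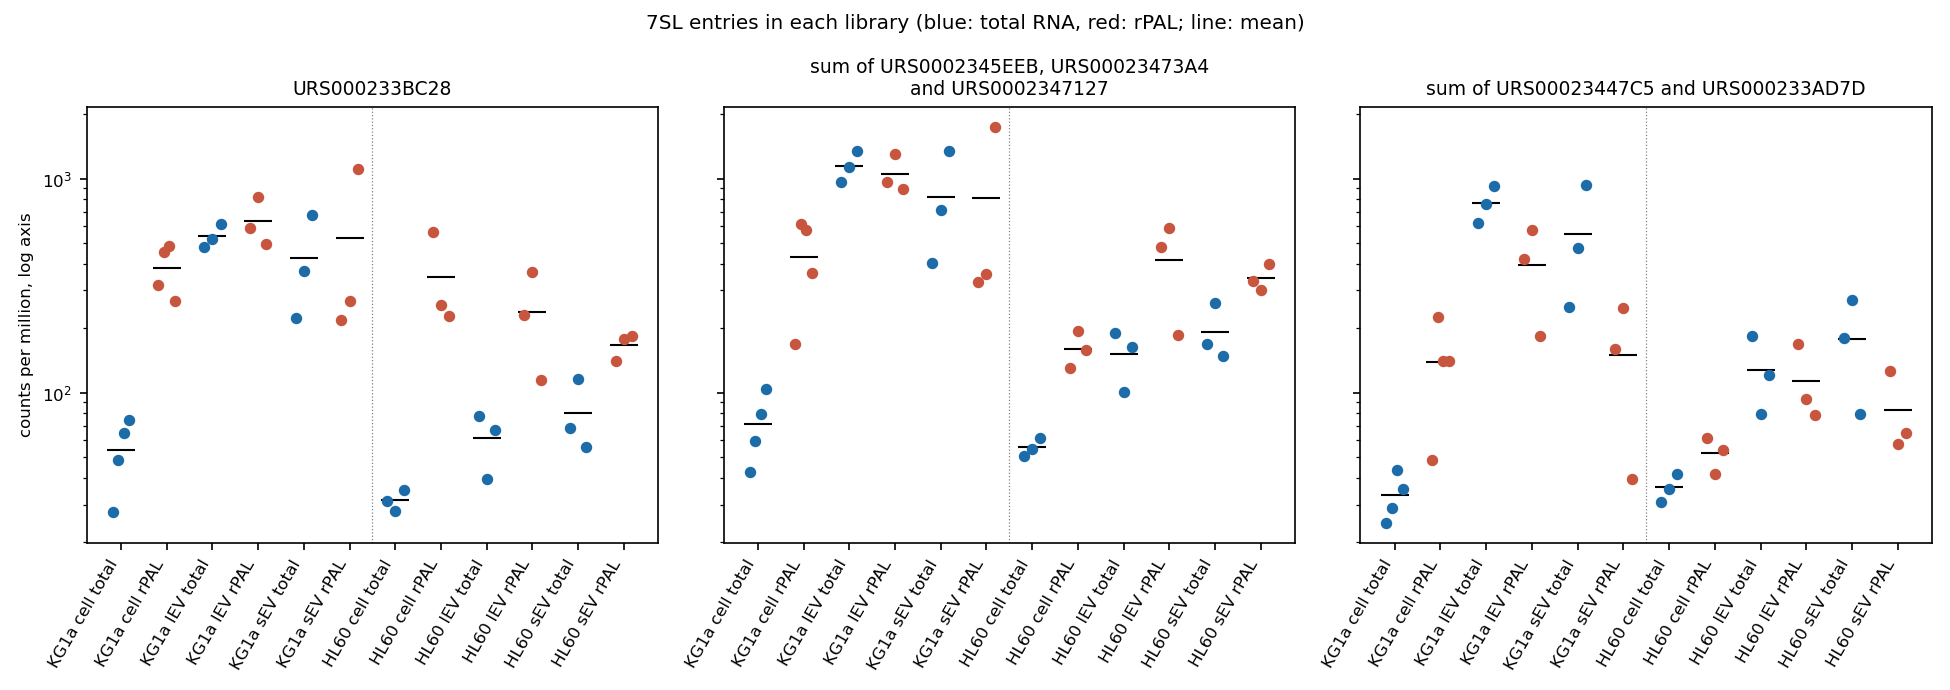
CPM (log axis) of the lead entry, the summed trio and the summed pair in each library, with blue points for total RNA, red points for rPAL and a line at each group's mean. In cells all rPAL points of the lead entry lie above all total points, while in vesicles of both lines the pair's rPAL mean lies below its total RNA mean.

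Lead entry levels were lowest in HL60 cell total RNA, at 31.1, 28.1 and 35.0 CPM, and in KG1a cell total RNA, at 27.6, 48.6, 65.0 and 74.3 CPM. HL60 lEV total RNA followed with 77.4, 39.6 and 66.8 CPM and HL60 sEV total RNA with 68.4, 116 and 56.0 CPM. These 4 lowest groups each overlapped the next. The other 8 groups all had higher means, from HL60 sEV rPAL, with 141, 177 and 183 CPM, to KG1a lEV rPAL, with 590, 822 and 494 CPM. The step from HL60 sEV total RNA to HL60 sEV rPAL was the only step between neighbours in the order of means without overlap. Of these 8 groups HL60 lEV rPAL had a library at 114 CPM, below the highest library of HL60 sEV total RNA. Cell rPAL lay at 319, 454, 482 and 267 CPM in KG1a and at 561, 256 and 228 CPM in HL60. Among KG1a sEV rPAL libraries, replicate 3, one of the libraries that stood apart, had 1102 CPM against 218 and 268 in the others.

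The make-up of the 7SL counts differed between rPAL and total RNA. In HL60 cells the lead entry took 27.2%, 23.4% and 24.9% of the 7SL counts in total RNA and 74.4%, 52.0% and 51.5% in rPAL, while the pair went from 27.0%, 29.6% and 29.8% to 8.16%, 8.44% and 12.2%. In the other 5 sources the mean share of the lead entry was likewise higher and that of the pair lower in rPAL. KG1a cells showed the least separation, with a lead share of 33.2% ± 3.0 in total RNA and 42.4% ± 11.6 in rPAL (SD, n = 4). There the ranges met, with rPAL replicates 2 and 4 at 35.2% and 34.7% inside the range of total RNA, and the pair in the same libraries at 17.4% and 18.2%, above the 16.6% of total replicate 4. HL60 sEV had lead shares of 16.3%, 17.6% and 19.2% in total RNA and 23.6%, 31.4% and 28.3% in rPAL. Total RNA of lEV held more of the pair than that of cells, at 31.1% ± 1.0 in KG1a lEV against 21.5% ± 3.8 in KG1a cells, and at 37.0% ± 3.2 in HL60 lEV against 28.8% ± 1.5 in HL60 cells (SD, n = 4 for KG1a cells, n = 3 for the others). KG1a sEV rPAL replicate 3 stood out with 1.37% of its 7SL counts in the pair, against 22.6% and 28.4% in replicates 1 and 2. These shares were chosen after the values were seen and carry no test.

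**Figure D2:**
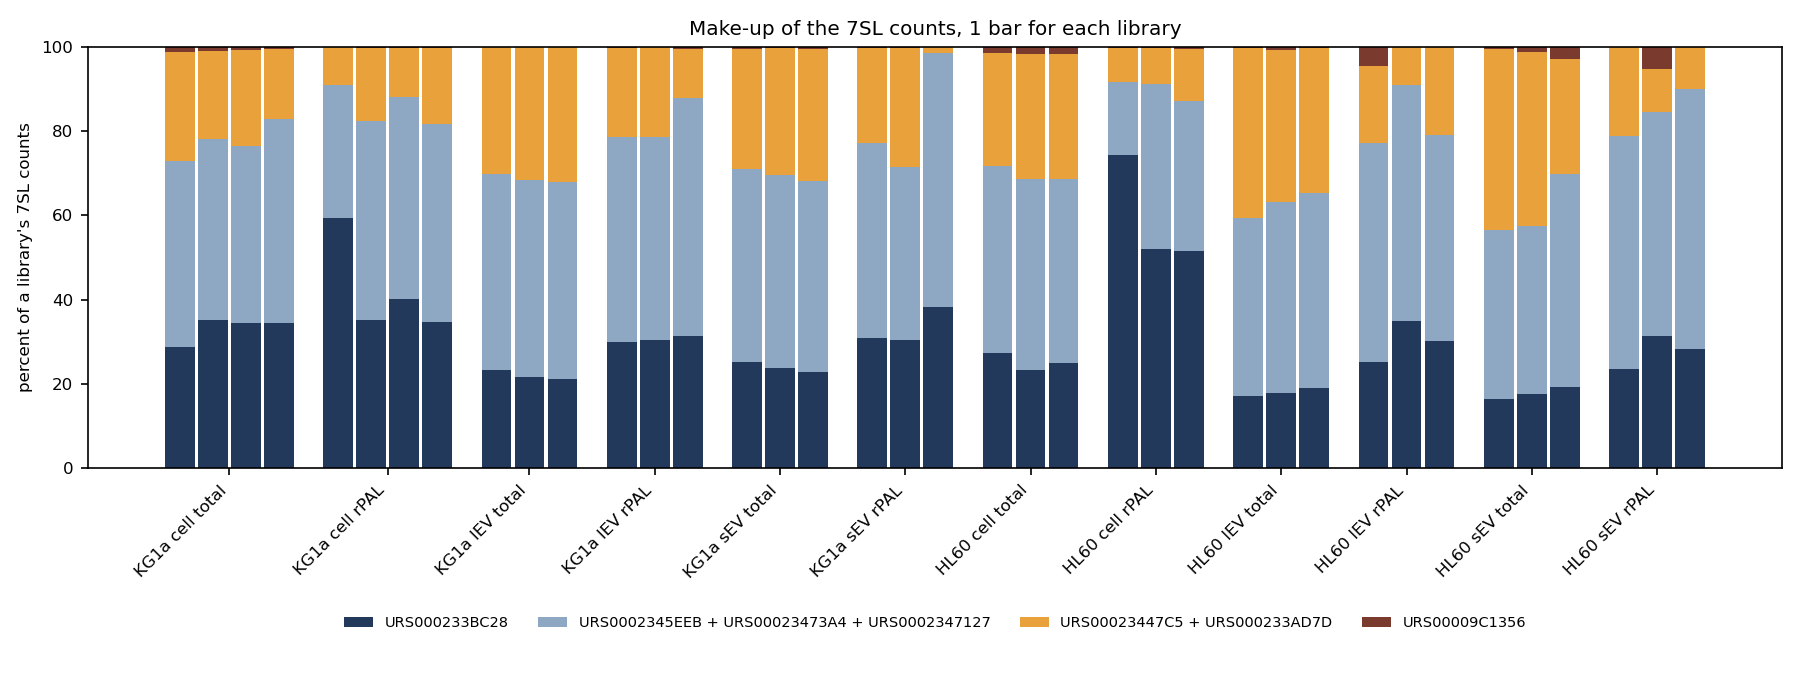
Percent of each library's 7SL counts (vertical axis) in the lead entry, the trio, the pair and URS00009C1356, with 1 stacked bar for each of the 38 libraries in their groups. On average over a group the lead entry's part is larger and the pair's part smaller in rPAL than in total RNA of a source, with the lead entry at 59.3% in HL60 cell rPAL, while single bars of KG1a cells overlap.

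The first comparison asked which entries were enriched by rPAL over the total RNA of the same source. In cells, 6 of 7 7SL entries rose in KG1a and 4 of 7 in HL60, by edgeR's quasi-likelihood test with Benjamini-Hochberg adjustment at an adjusted p under 0.05. Of all features tested, 18.8% were called in KG1a cells (8.89% higher) and 38.6% in HL60 cells (20.6% higher). The median log2 fold change over all 7 7SL entries was 2.28 in KG1a cells, against -0.04 over all 6592 features tested, and 1.06 in HL60 cells, against 0.04 over 6902. The lead entry rose by a log2 fold change of 2.59 ± 0.46 (SE) in KG1a cells (adjusted p = 0.0027) and by 3.21 ± 0.41 in HL60 cells (adjusted p = 0.00031), which is 6.0-fold and 9.22-fold. Both calls held in the fits that left out any 1 of the libraries compared and with no filter, and neither held in 1 fit of all 12 groups (2.14, adjusted p = 0.067, and 2.70, adjusted p = 0.051). None of the other 7SL and vault RNA calls in cell rPAL held in that fit, and with no filter none of the other 7SL calls did.

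In KG1a cells the trio rose by 2.28 to 2.39 on the log2 scale. URS0002345EEB, for example, went from 12.5, 19.6, 26.1 and 33.2 CPM to 58.7, 205, 194 and 117 CPM, without overlap (log2 fold change 2.39 ± 0.52, adjusted p = 0.0063). The pair also rose, URS00023447C5 by 1.73 ± 0.53 (adjusted p = 0.039) and URS000233AD7D by 1.97 ± 0.55 (adjusted p = 0.024). Among the trio, the call of URS0002347127 was lost without total replicate 2 or 3. The first of the pair calls was lost in 6 of 8 and the second in 5 of 8 fits that left out 1 library, each KG1a cell total library among them and rPAL replicate 2, and for URS00023447C5 also rPAL replicate 4. In HL60 cells the trio rose by 1.06 to 1.44, from 13.9, 14.9 and 19.99 CPM to 46.0, 63.9 and 50.2 CPM for URS0002345EEB (log2 fold change 1.44 ± 0.37, adjusted p = 0.012). The call of URS00023473A4 (1.06 ± 0.37, adjusted p = 0.047) was lost without any 1 of the 6 libraries, and those of URS0002345EEB and URS0002347127 were lost without any 1 of the 3 total libraries, the latter also without rPAL replicate 2. The HL60 pair had log2 fold changes of 0.42 ± 0.40 and 0.12 ± 0.39, neither of which passed (adjusted p = 0.47 and 0.85). Between rPAL and total RNA the share of tRNA counts also moved, from 7.38% to 12.3% up to 38.7% to 77.0% in KG1a cells and from 19.7% to 20.7% up to 62.0% to 74.1% in HL60 cells, and its part in these results was not tested.

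No 7SL entry was called in vesicles of either line in rPAL against total RNA. Of all features, 10.2% were called in KG1a lEV, 6.61% in KG1a sEV, 31.3% in HL60 lEV and 18.8% in HL60 sEV. Before adjustment 1519, 1510, 1318 and 1008 features passed 0.05 in these comparisons, among them the pair in HL60 lEV and no other 7SL entry. DESeq2 called the pair in HL60 lEV and no 7SL entry in the other vesicle sources. In KG1a lEV the lead entry had 481, 521 and 610 CPM in total RNA and 590, 822 and 494 CPM in rPAL, overlapping groups with a log2 fold change of 0.17 ± 0.92. The summed pair had a mean of 767 CPM in total RNA and 394 in rPAL of KG1a lEV, and of 551 and 150 CPM in KG1a sEV. In HL60 its means were 128 and 114 CPM in lEV and 177 and 83.0 CPM in sEV. In HL60 lEV the lead entry had 77.4, 39.6 and 66.8 CPM in total RNA and 232, 366 and 114 CPM in rPAL, which do not overlap, yet its log2 fold change after TMM, edgeR's scaling that assumes most features do not change, was 0.57 ± 0.67 (adjusted p = 0.59) and without TMM 1.97 (adjusted p = 0.061). TMM moved the median of all features in this comparison from 1.54 to 0.08 and the share of higher calls from 58.4% to 39.4%. The pair in HL60 lEV had log2 fold changes of -1.56 ± 0.66 and -1.67 ± 0.66 (adjusted p = 0.11 and 0.088), while DESeq2 gave -1.77 (adjusted p = 0.035) and -1.90 (adjusted p = 0.021). Without TMM they were at -0.09 and -0.22. In these libraries rRNA took 4.94% to 6.86% of counts in HL60 lEV total RNA and 41.8% to 63.3% in rPAL, and its part in the result was not tested.

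**Figure D3:**
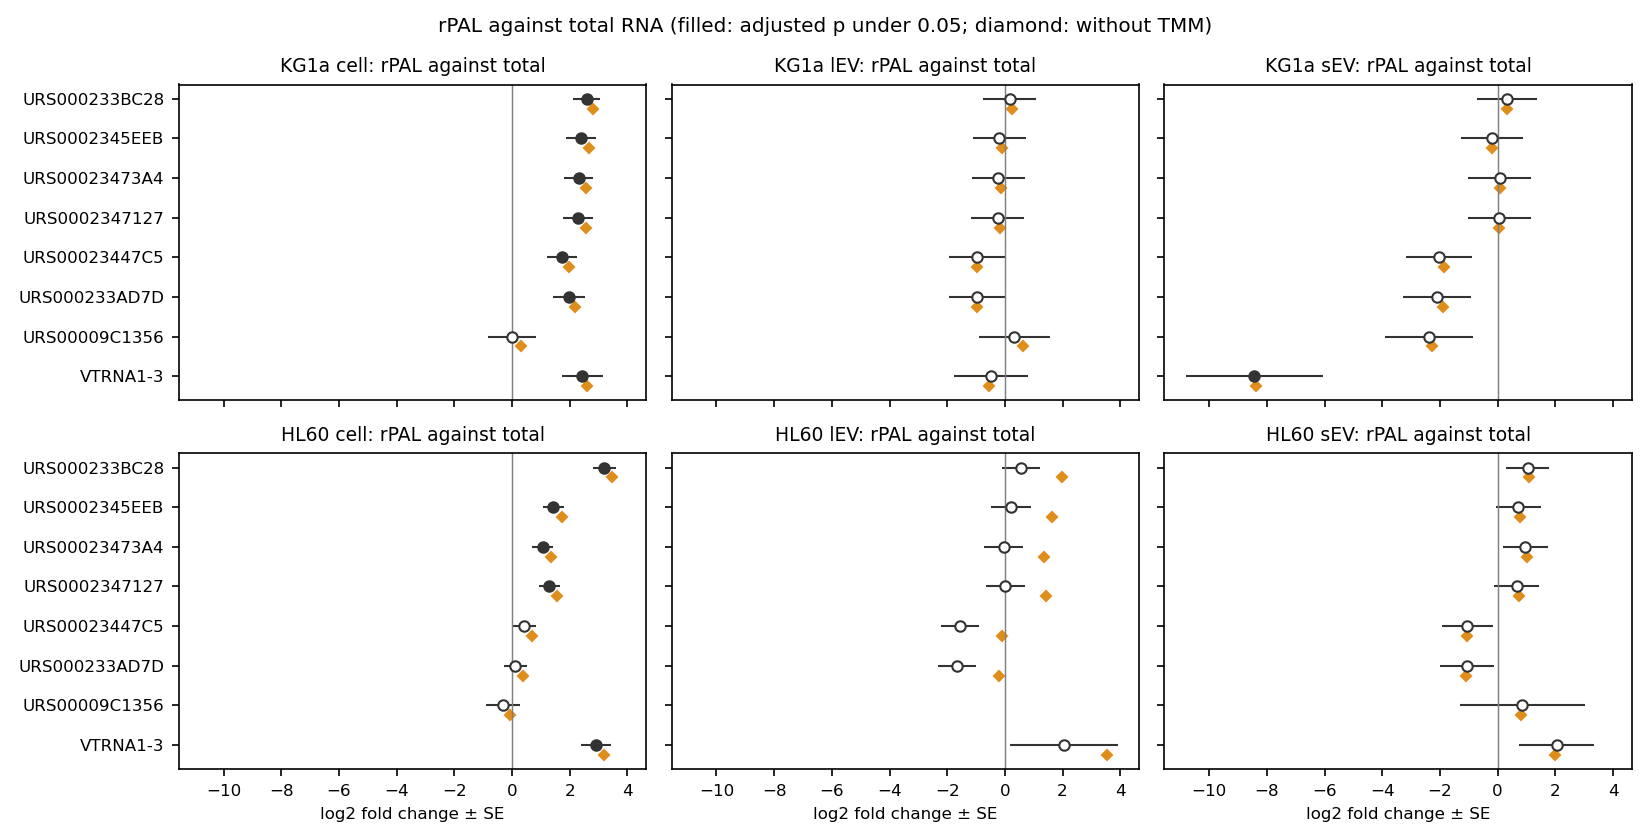
Log2 fold change of rPAL against total RNA (horizontal axis, points with SE) for each entry tested in the 6 sources, filled where the adjusted p was under 0.05, with diamonds for the same fit without TMM. Filled points lie right of 0 in the cells of both lines, and the only filled point in vesicles is VTRNA1-3 in KG1a sEV, whose position depends on the fit's prior count because its rPAL count was 0.

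URS00009C1356, the scarce seventh 7SL entry, was called in none of the comparisons. It passed the filter on low counts in all of them except rPAL against total RNA in HL60 lEV. Total RNA libraries held 0.59 to 11.5 CPM of it. In HL60 lEV rPAL its counts were 191, 0 and 0, and in HL60 sEV rPAL 0, 101 and 0, so that single libraries held nearly all of its reads there. In KG1a cells, where the 6 other 7SL entries rose, its fitted fold change was 0.997 (adjusted p = 0.998).

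VTRNA1-3 was the only feature classed as vault RNA with enough counts for a test, with 3150 counts, 95.4% of all counts of that type. In KG1a cell total RNA it lay at 0.43, 0.57, 1.70 and 0.67 CPM and in KG1a cell rPAL at 6.92, 4.22, 5.38 and 3.80 CPM. In HL60 cell total RNA it lay at 1.43, 1.14 and 2.73 CPM and in rPAL at 12.1, 22.9 and 13.7 CPM. In the cells of both lines all rPAL libraries were above all total libraries, and VTRNA1-3 rose by a log2 fold change of 2.44 ± 0.70 in KG1a (5.42-fold, adjusted p = 0.029) and 2.92 ± 0.52 in HL60 (7.57-fold, adjusted p = 0.0021). The HL60 call held without any 1 library, and the KG1a call was lost without any 1 of the 4 total libraries.

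In KG1a sEV the direction was the opposite. VTRNA1-3 had 16, 68 and 86 counts in the total libraries (1.71, 7.92 and 9.96 CPM) and 0 counts in all 3 rPAL libraries. Taking 3 counts over the 3 rPAL libraries as the limit that a count of 0 allows (0.252 CPM), VTRNA1-3 was at least 25.4-fold lower in rPAL, for counting error only. The edgeR test called it lower (adjusted p = 0.019, 6.13% of all features called lower). That call was lost in each of the 6 fits that left out 1 library and in the fit without the libraries that stood apart (adjusted p = 0.054). It held in 1 fit of all 12 groups (edgeR, adjusted p = 0.0091). The share of rRNA was 25.4% to 43.3% in KG1a sEV total RNA and 58.5% to 63.9% in rPAL, and the mRNA of the KG1a marker CD34 was also called lower there (log2 fold change -6.34 ± 1.95, adjusted p = 0.030), at 6.97 to 34.2 CPM in total RNA and 0 to 0.33 CPM in rPAL. The part of these in the VTRNA1-3 result was not tested. Depth in KG1a sEV was 2421134 to 6133815 counts for rPAL and 8586929 to 9331812 for total RNA. VTRNA1-3 in KG1a lEV had 1.42, 2.13 and 3.06 CPM in total RNA and 2.26, 1.94 and 0 in rPAL, without a call (log2 fold change -0.49 ± 1.28, adjusted p = 0.86).

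HL60 vesicle rPAL gave very uneven values of VTRNA1-3. In lEV the rPAL libraries had 4, 1 and 418 counts (0.85, 0.23 and 84.0 CPM) against 2.43, 1.61 and 3.40 CPM in total RNA, so 2 rPAL libraries lay below and replicate 3 above all total libraries. The log2 fold change was 2.05 ± 1.87 (adjusted p = 0.47), and without rPAL replicate 3 it turned to -3.80 and was called lower. With the replicate number as a block it was -1.83 (adjusted p = 0.68). In sEV the rPAL libraries had 4.04, 215 and 90.7 CPM against 21.3, 37.5 and 20.4 CPM in total RNA (log2 fold change 2.04 ± 1.30, adjusted p = 0.37). Replicate 1 lay below and replicates 2 and 3 above all total libraries. The highest of these was the library with 40.1% of its counts in PCNA.

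**Figure D4:**
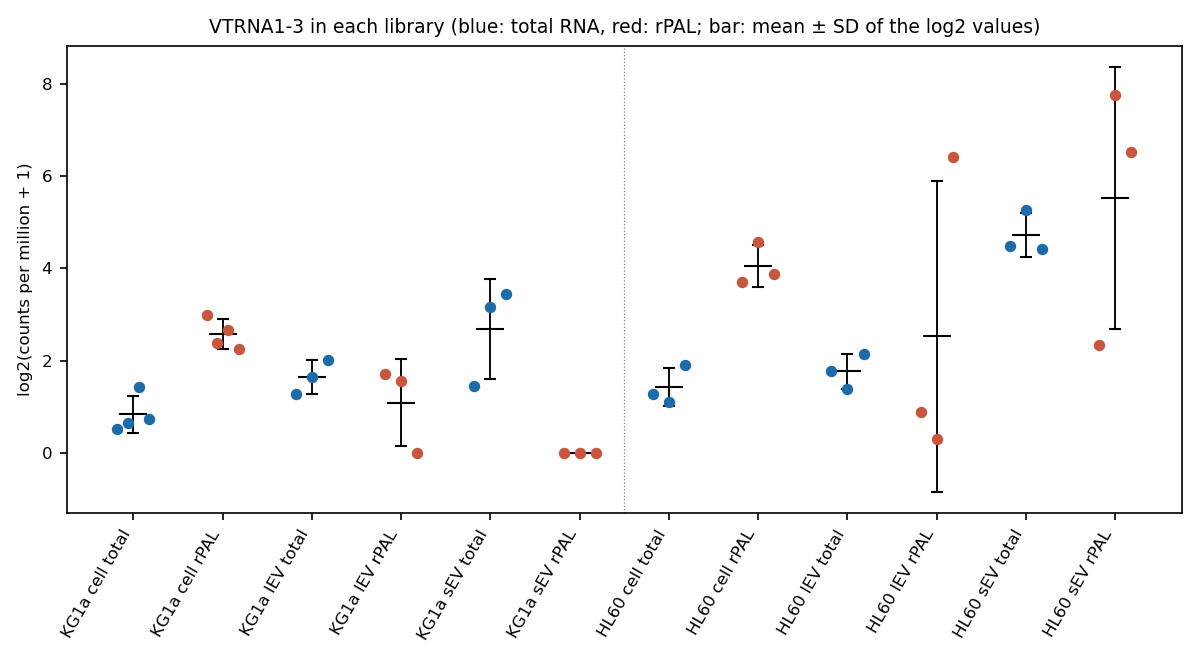
VTRNA1-3 in each library as log2(CPM + 1) (vertical axis) over the 12 groups, with blue points for total RNA, red points for rPAL and bars for the mean ± SD of these log2 values. KG1a sEV rPAL has all 3 points at 0, and the 3 HL60 lEV rPAL points span 0.23 to 84.0 CPM.

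VTRNA1-2 and VTRNA2-1 had too few counts to pass the filter in any comparison. VTRNA1-2 had 129 counts in 28 libraries and at most 1.85 CPM, in HL60 cell rPAL replicate 1. It was at 0 in all rPAL libraries of KG1a sEV and of HL60 lEV, against 13 and 10 counts in the matching total RNA. At the floor of 3 counts over a group these differences are at least 1.94-fold and at least 1.19-fold, so little can be seen at this depth. VTRNA2-1, which shares few 18-base stretches with the VTRNA1 genes, had 23 counts in 13 libraries and at most 0.56 CPM. Of its 23 counts 8 were in KG1a cell total RNA and 7 in KG1a lEV total RNA.

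The vault RNA share differed between rPAL and total RNA by 0.00188 percentage points on average over the 6 sources, with a mean SD between libraries of 0.00198 points. The value was 0.000944 to 0.00271 points when 1 library was left out and 0.00397 points with rRNA features left out. The share was higher in rPAL in the cells of both lines and in HL60 sEV, and lower in both KG1a vesicle groups. In HL60 lEV the difference of 0.00256 points rested on rPAL replicate 3, and without it was -0.00022 points. VTRNA3-1P, a vault RNA pseudogene classed as another RNA type, is not part of this share. In HL60 cells it lay above VTRNA1-3 in total RNA and fell in rPAL, with values given below. The direction of the share in HL60 cells therefore holds only for the features classed as vault RNA. In the order of group means of VTRNA1-3, the lowest was KG1a sEV rPAL at 0, then KG1a cell total RNA at 0.84 ± 0.58 CPM (SD, n = 4), and the highest were HL60 sEV total RNA at 26.4 ± 9.6, HL60 lEV rPAL at 28.4 ± 48.2 and HL60 sEV rPAL at 103 ± 106 CPM (SD, n = 3). The groups from KG1a cell total RNA to HL60 lEV total RNA each overlapped the next, and so did the 4 highest groups from HL60 cell rPAL upwards.

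The next comparison asked how the entries in vesicle total RNA compared with cell total RNA. In KG1a, the lead entry, the trio and the pair were all higher in lEV and in sEV than in cells, 6 of 7 entries in each comparison, where 52.3% and 45.1% of all features were called (23.8% and 23% higher). In HL60, 6 of 7 were higher in lEV and 5 of 7 in sEV, where 27.3% and 26.7% of all features were called (12.1% and 13.9% higher). The median log2 fold change over all 7 7SL entries was 3.86 for KG1a lEV, 2.29 for KG1a sEV, 2.33 for HL60 lEV and 1.59 for HL60 sEV, against medians of -0.01, 0.22, 0.16 and 0.16 over all features tested. The comparisons within a line share the cell libraries. The share of tRNA counts was also higher in lEV than in cells, at 30.8% to 44.2% against 7.38% to 12.3% in KG1a and 51.1% to 63.2% against 19.7% to 20.7% in HL60, and its part in these results was not tested.

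The largest of these differences was that of URS000233AD7D in KG1a lEV. It lay at 11.96, 13.2, 21.6 and 9.74 CPM in KG1a cells and at 291, 352 and 426 CPM in lEV, a log2 fold change of 4.57 ± 0.39 (23.7-fold, adjusted p = 9.2e-07). The lead entry went from 27.6 to 74.3 CPM in KG1a cells to 481 to 610 CPM in lEV, a log2 fold change of 3.22 ± 0.38 (9.30-fold, adjusted p = 1.0e-05). In KG1a sEV the 6 entries rose by 1.81 ± 0.45 (lead entry, adjusted p = 0.0069) to 2.99 ± 0.45 (URS000233AD7D, adjusted p = 0.00051). All 12 of these KG1a calls held without any 1 library. In 1 fit of all 12 groups the trio and the pair stayed called in KG1a lEV (3.66 to 4.36), while the lead entry in lEV (3.02, adjusted p = 0.061) and all 6 entries in sEV (1.54 to 2.69, adjusted p = 0.065 to 0.31) were not called. None of the HL60 calls of 7SL entries in vesicles held in that fit. In KG1a sEV the values depended on the scaling, since without TMM they were 2.99 for the lead entry and 4.16 for URS000233AD7D, the median of all features moved from 0.22 to 1.36, and 81.2% in place of 51.1% of calls were higher.

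In HL60 lEV the pair rose most, with URS00023447C5 at 89.6, 42.1 and 65.7 CPM against 15.4, 17.7 and 21.0 CPM in cells, without overlap (log2 fold change 2.74 ± 0.57, adjusted p = 0.0042). The lead entry rose by 1.83 ± 0.53 (adjusted p = 0.023). Without TMM the lead entry and the trio were no longer called in HL60 lEV (0.96 to 1.48, adjusted p = 0.065 to 0.24), the median of all features moved from 0.16 to -0.62, and 10.9% in place of 44.3% of calls were higher. Without HL60 cell total replicate 1 the calls of the lead entry, the trio and URS000233AD7D were lost, without replicate 3 those of the lead entry and the trio, and without replicate 2 that of the lead entry. In HL60 sEV the 5 called entries rose by 1.38 to 2.14, and the lead entry, at 68.4, 116 and 56.0 CPM against 31.1, 28.1 and 35.0 CPM in cells, did not pass (log2 fold change 1.14 ± 0.43, adjusted p = 0.077), although its groups did not overlap and both DESeq2 (adjusted p = 0.030) and the fit without TMM (adjusted p = 0.035) called it. All 5 calls were lost without any 1 of the 3 cell libraries or without HL60 sEV total replicate 2. Of all calls in HL60 sEV 51.9% were higher, and 64.1% without TMM.

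VTRNA1-3 was higher in vesicles than in cells in all 4 comparisons. Its log2 fold change was 1.30 ± 0.45 in KG1a lEV (adjusted p = 0.024), 1.88 ± 0.60 in KG1a sEV (adjusted p = 0.024), 1.29 ± 0.41 in HL60 lEV (adjusted p = 0.033) and 3.70 ± 0.59 in HL60 sEV (adjusted p = 0.0035). None of the 4 held in 1 fit of all 12 groups (adjusted p = 0.17 to 1.0). The HL60 sEV difference was 13-fold, from 1.43, 1.14 and 2.73 CPM in cells to 21.3, 37.5 and 20.4 CPM, and these groups lay far apart. In lEV of both lines the libraries overlapped those of cells, and in HL60 lEV neither the fit without TMM (0.49, adjusted p = 0.58) nor DESeq2 (adjusted p = 0.093) called it. Each of the 4 calls was lost without cell total replicate 1 of its line and also without cell total replicate 2. In KG1a lEV it was also lost without lEV replicate 3, in KG1a sEV without cell replicate 4 or sEV replicate 2 or 3, and in HL60 lEV without lEV replicate 1.

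Between the vesicle kinds, no entry was called in total RNA of either line, where 5.31% of all features were called in KG1a and 7.21% in HL60 (1823 and 1352 features at an unadjusted p under 0.05). In KG1a the lead entry, the trio and the pair had log2 fold changes of -1.42 to -1.23 in sEV against lEV, with adjusted p = 0.11 to 0.14. Same-numbered KG1a lEV and sEV libraries deviated together, and with the replicate number as a block these 6 entries were called lower in sEV, at -1.31 for the lead entry (adjusted p = 0.033) to -1.53 for URS000233AD7D (adjusted p = 0.019). Their CPM ranges overlapped, with the lead entry URS000233BC28 at 481, 521 and 610 CPM in lEV and 222, 370 and 677 CPM in sEV. Without TMM the unblocked values were -0.52 to -0.33, while the median of all features moved from 0.13 to 1.01 and the share of higher calls from 64.2% to 94.5%. In HL60 the 6 entries had log2 fold changes of -0.80 to -0.49, which turned to 0.23 to 0.54 without TMM, where 96.7% in place of 75.7% of calls were higher. VTRNA1-3 lay at 2.43, 1.61 and 3.40 CPM in HL60 lEV and 21.3, 37.5 and 20.4 CPM in sEV, without overlap. Its log2 fold change of 2.47 ± 0.75 did not pass (adjusted p = 0.066), and was called without TMM (3.43, adjusted p = 0.015) and by DESeq2 (2.55, adjusted p = 0.0011).

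**Figure D5:**
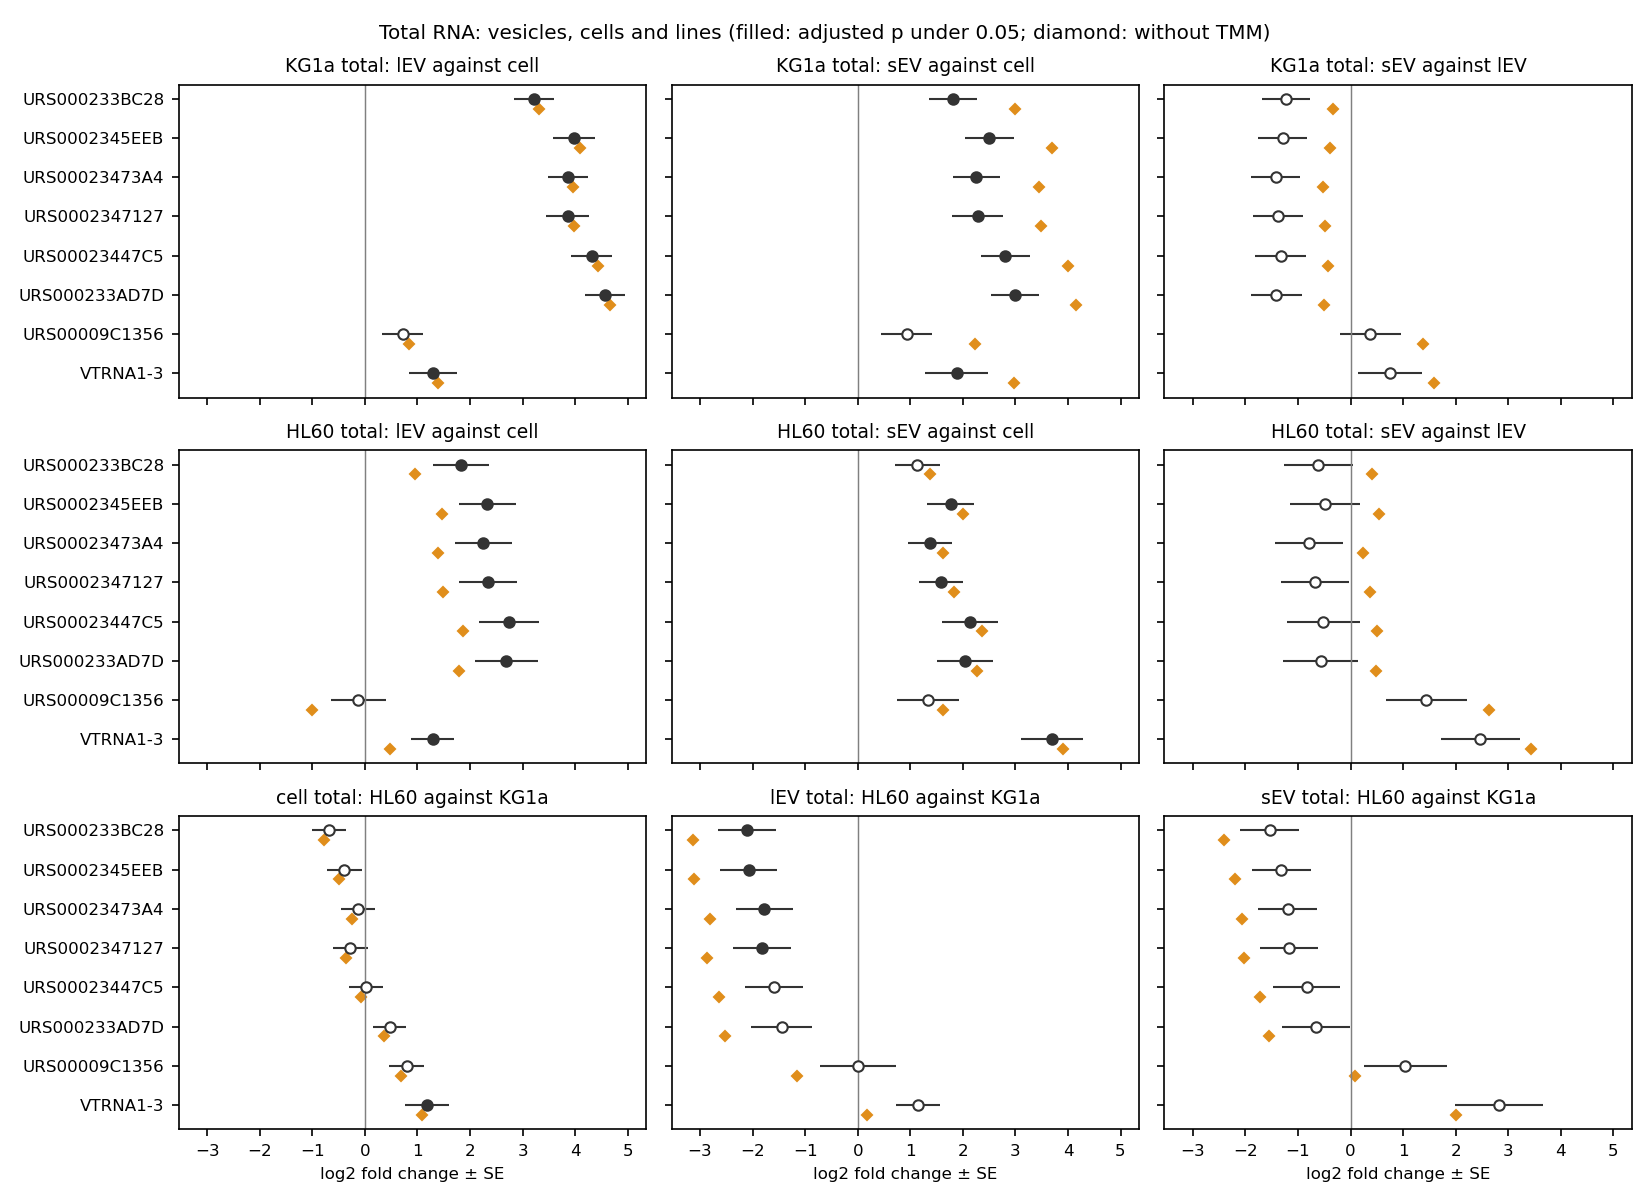
Log2 fold change (horizontal axis, points with SE) of each tested entry in total RNA for lEV against cells, sEV against cells and sEV against lEV in each line, and for HL60 against KG1a in each source, filled where the adjusted p was under 0.05, with diamonds for the same fit without TMM. The 6 abundant 7SL entries lie right of 0 in vesicles against cells of both lines and left of 0 in HL60 against KG1a lEV.

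The lines were compared within each source in total RNA. In cells no 7SL entry was called, where 39.9% of all features were (18.4% higher). Log2 fold changes of HL60 against KG1a went from -0.67 ± 0.32 (lead entry, adjusted p = 0.10) to 0.79 ± 0.33 (URS00009C1356, adjusted p = 0.063). The CPM ranges of URS00009C1356 did not overlap, at 1.94 ± 0.39 in HL60 cells and 1.19 ± 0.05 in KG1a cells (mean ± SD). VTRNA1-3 was higher in HL60 cells, at 1.43, 1.14 and 2.73 CPM against 0.43, 0.57, 1.70 and 0.67 in KG1a (log2 fold change 1.18 ± 0.42, adjusted p = 0.032). These ranges overlapped, the call was lost without HL60 replicate 3 or KG1a replicate 1, 2 or 4, and neither the fit without TMM (adjusted p = 0.067) nor DESeq2 (adjusted p = 0.056) made it. In lEV the lead entry and the trio were lower in HL60, 4 of 7 entries, where 16.1% of all features were called (9.07% lower).

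The lead entry in lEV lay at 77.4, 39.6 and 66.8 CPM in HL60 and at 481, 521 and 610 CPM in KG1a, without overlap (log2 fold change -2.11 ± 0.55, adjusted p = 0.021). The pair had -1.59 ± 0.56 and -1.45 ± 0.58 (adjusted p = 0.074 and 0.11), also without overlap of the CPM ranges, and both were called by DESeq2 and without TMM. None of the 4 calls held in 1 fit of all 12 groups (adjusted p = 0.33 to 0.52), without KG1a lEV total replicate 2 or 3 or HL60 lEV total replicate 3, and URS00023473A4 and URS0002347127 also lost theirs without KG1a replicate 1 or HL60 replicate 2. Without TMM the median of all features moved from 0.04 to -0.90 and 10.98% in place of 43.7% of calls were higher. In sEV no entry was called, where 1.38% of all features were (1269 at an unadjusted p under 0.05), although the lead entry lay at 68.4, 116 and 56.0 CPM in HL60 and 222, 370 and 677 CPM in KG1a (log2 fold change -1.54 ± 0.55, adjusted p = 0.24). VTRNA1-3 in sEV had 2.83 ± 0.84 (adjusted p = 0.18) and was called by DESeq2 (adjusted p = 0.0088). Without TMM 20.2% in place of 44.1% of calls in sEV were higher.

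Whether rPAL enrichment differed between sources or lines was tested as an interaction. Of the 7SL entries 1 of 7 was called in 1 of 5 contrasts, the lead entry in HL60 sEV against HL60 cells, where 13.2% of all features were called (12.8% lower). Its enrichment was lower in sEV by a log2 difference of -2.89 ± 0.91 (adjusted p = 0.047), against a median of -1.53 over all features. That call was lost without TMM, with no filter, with DESeq2, in 1 fit of all groups, with the replicate block and without the libraries that stood apart (-2.26, adjusted p = 0.12), and in 11 of the 12 fits that left out 1 library. VTRNA1-3 was called in KG1a sEV against KG1a cells, with a fitted log2 difference of -10.49 ± 2.26 (adjusted p = 0.049), where 0.0584% of all features were called (0.0219% lower). The size of this value depends on the prior count of the fit, since KG1a sEV rPAL held 0 counts, and the call was lost in 12 of the 14 fits that left out 1 library, in 1 fit of all groups and with the replicate block. KG1a lEV against cells had no call in any feature (0%, with 1498 of 10442 at an unadjusted p under 0.05, and 26 called without TMM), HL60 lEV against cells called 12.7% of features and none of the entries, and HL60 against KG1a cells called 1.81% and none of the entries. In KG1a lEV and sEV the lead entry's enrichment was below that in cells by 2.24 ± 1.02 and 2.26 ± 1.14 on the log2 scale, without passing (adjusted p = 0.30 and 0.33).

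Of the 8 mRNAs of signal recognition particle proteins and their receptor listed, 3 to 5 were tested in each rPAL comparison but HL60 lEV, where 2 were. In KG1a cells none was called, nor any vault factor mRNA or other RNA polymerase III RNA listed (0 of 3, 0 of 3 and 0 of 4 tested). SRP72, a scaffold protein of the particle, rose in HL60 cell rPAL by 2.79 ± 0.51 on the log2 scale (adjusted p = 0.0024), from 1.54 to 2.35 CPM in total RNA to 10.3 to 26.4 CPM in rPAL, and was the only one called there. In HL60 lEV rPAL the same mRNA fell, with a log2 fold change of -6.27 ± 1.44 (adjusted p = 0.014), from 1.39 to 5.10 CPM to at most 0.21 CPM. SRP14, whose protein binds the Alu domain of 7SL, was at 0 in all KG1a lEV rPAL libraries against 1.02 to 1.27 CPM in total RNA, and was called lower (adjusted p = 0.024). In HL60 cell rPAL 20.6% of all features were higher, and in HL60 and KG1a lEV rPAL 18.9% and 7.07% were lower. In vesicle total RNA, 2 of 6 tested were higher in KG1a lEV (SRP72 and SRPRA) and 2 of 5 in KG1a sEV (SRP68 and SRP72), 1 of 4 in HL60 sEV (SRP68) and 0 of 3 in HL60 lEV. Of all features 23.8%, 23%, 13.9% and 12.1% were higher in these comparisons, and the list was not tested against those shares. In the test of enrichment differences 3 of 5 were lower in HL60 lEV than in cells (SRPRB, SRP68 and SRP72) and 1 of 4 in HL60 sEV (SRP68), where 11.4% and 12.8% of all features were lower.

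Of 7 vault particle and vault RNA factor mRNAs, MVP, the shell protein, rose in HL60 cell rPAL by 3.67 ± 0.94 (adjusted p = 0.013), from at most 0.21 CPM in total RNA to 1.55 to 2.36 CPM, the only one of 4 tested. There 20.6% of all features were higher. In HL60 lEV and sEV rPAL the only one tested was SRSF2, which was at 0 in all rPAL libraries of both and was called lower (adjusted p = 0.011 and 0.029), where 18.9% and 16.3% of all features were lower. In the test of enrichment differences, 3 of 4 were lower in HL60 lEV than in cells (NSUN2, PARP4 and SRSF2) and 2 of 4 in HL60 sEV (MVP and SRSF2), where 11.4% and 12.8% of all features were lower. MVP was also higher in HL60 sEV than in HL60 cell total RNA (3.11 ± 0.81, adjusted p = 0.022), where 13.9% of all features were higher. SRSF2, a splicing factor that binds vault RNA, was lower in vesicle than in cell total RNA in all 4 comparisons, by -2.41 ± 0.40 in KG1a lEV to -1.36 ± 0.43 in HL60 lEV. Of all features 28.5% were lower in KG1a lEV, 22.1% in KG1a sEV, 15.2% in HL60 lEV and 12.8% in HL60 sEV. TEP1, a vault protein, was higher in both KG1a vesicle kinds (1.70 ± 0.50 and 1.78 ± 0.53), where 23.8% of all features were higher in lEV and 23% in sEV. These mRNAs lay at low levels in small RNA libraries, which hold fragments of them.

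Among other RNA polymerase III RNAs, the Y RNA RNY4 was higher in vesicle than in cell total RNA in all 4 comparisons, at log2 fold changes of 1.95 ± 0.49 (KG1a sEV) to 4.57 ± 0.72 (HL60 lEV). RNY1 and RNY3 were higher in lEV of both lines. RNU6ATAC, a small nuclear RNA of the minor spliceosome, was lower in both KG1a vesicle kinds (-5.43 ± 0.59 in lEV and -3.71 ± 0.67 in sEV). Of those tested, 3 of 4 were thus higher and 1 of 4 lower in KG1a lEV, 1 higher and 1 lower of 4 in KG1a sEV, 3 of 3 higher in HL60 lEV and 1 of 3 in HL60 sEV. Of all features 23.8% were higher and 28.5% lower in KG1a lEV, and 23% were higher and 22.1% lower in KG1a sEV. In HL60 lEV 12.1% of all features were higher, and in HL60 sEV 13.9%. In HL60 cell rPAL RNY1 and RNY4 fell, 2 of 3 such RNAs tested, with log2 fold changes of -1.99 ± 0.51 (adjusted p = 0.012) and -6.04 ± 1.04 (adjusted p = 0.0018), in the comparison in which the lead 7SL entry and VTRNA1-3 rose and 18% of all features fell. In HL60 sEV rPAL RNY1 and RNY3 were lower, 2 of 3 tested (16.3% of all features lower), and in KG1a sEV rPAL RNY4 was, 1 of 3 tested (6.13% of all features lower). The enrichment of RNY1 and RNY3 was also lower in HL60 sEV than in HL60 cells, 2 of 3 tested (12.8% of all features lower). In HL60 cell rPAL the Ensembl copy RN7SL1 fell by 4.07 ± 0.90 (adjusted p = 0.0058), from 1.85 to 2.08 CPM to at most 0.21 CPM, against the direction of the 7SL entries. VTRNA3-1P, a vault RNA pseudogene classed as another RNA type in the table, lay at 17.6 to 27.2 CPM in HL60 cell total RNA and at 1.01 to 1.42 CPM in rPAL (log2 fold change -4.54 ± 0.51, adjusted p = 0.00013), also against the direction of VTRNA1-3. It was also called lower in rPAL of HL60 lEV and HL60 sEV, where 18.9% and 16.3% of all features were lower, and was not called in rPAL of KG1a cells or KG1a lEV. VTRNA3-1P was higher in HL60 than in KG1a cells by 4.87 ± 0.40 (adjusted p = 1.3e-08).

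The features of another type whose group means followed the lead entry most closely were a tRNA entry, URS0000092302 (Pearson r = 0.846), the pseudogene RPLP0P6 (0.807) and PABPC1, which encodes the poly(A)-binding protein (0.806). Those closest to VTRNA1-3 were TRA2B, which encodes a splicing regulator (0.834), the snRNA entry URS0000EA9868 (0.824) and PCNA, the sliding clamp of DNA replication (0.784). These are correlations of log2(mean CPM + 1) over the 12 groups, out of 1009 and 1015 features with at least 5000 counts. They describe a likeness of levels in groups that share library depth and composition. PCNA had means of 10960 CPM in HL60 sEV total RNA and 138535 CPM in HL60 sEV rPAL, and of at most 57.3 CPM in any other group. HL60 sEV rPAL holds the library with 40.1% of its counts in PCNA, which also had the highest VTRNA1-3 level. For the lead entry, the tRNA entry went from 105 CPM in KG1a cell total RNA to 1351 in rPAL, and from 29.9 to 1589 CPM in HL60 cells. In vesicles they moved apart between the group means, since the tRNA entry was lower in rPAL in all 4 sources (1590 to 1089 CPM in KG1a lEV, 521 to 402 in KG1a sEV, 203 to 175 in HL60 lEV and 243 to 149 in HL60 sEV), where the mean of the lead entry was higher.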

How the data were processed

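Small RNA libraries of the lines KG1a and HL60 were analysed, 38 libraries in 12 groups. The authors deposited a single table of raw counts per feature. The submitters' processing notes name Bowtie2 and the build GRCh38, or hg38. The counter, its strand setting and its rule for multi-mapping reads are not given in the sources used here. All columns matched a labelled sample, and the values were whole numbers.

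The members, gene lists and tests were chosen with earlier results of these data known. CPM is the count per 1000000 counts of a library's total. Tests used edgeR 4.0.16 (R 4.3.3) with TMM, filterByExpr, robust quasi-likelihood dispersions and Benjamini-Hochberg adjustment over all features tested in a comparison. Only the groups compared entered a fit, and a feature was called at an adjusted p under 0.05. In edgeR the fold changes are after TMM, while CPM ratios are not, so they can differ. TMM moved the median log2 fold change of all features by over 0.1 in 11 of 15 comparisons of 2 groups, by up to 1.46. The script was tested on simulated data in which as many features rose as fell. That test does not cover comparisons in which most features move in the same direction. A fold against a group at 0 used a floor of 3 counts over the group.

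The named features were all members, the 3 features most like the lead 7SL entry and VTRNA1-3 over the 12 groups, and fixed lists. Alternatives were no TMM, no filter, DESeq2 1.42.0, 1 fit of all 12 groups, a replicate block, leaving out each library, and, chosen after seeing the data, leaving out the 3 libraries that stand apart. Same-numbered libraries deviated together in every pair, by the correlation of their deviations from the group means, for KG1a lEV and sEV total RNA (r = 0.388 to 0.612) and for sEV total RNA of both lines (0.101 to 0.299). That pairing comes from the data, as the labels give only a number. In the other 13 comparisons at least 1 pair was at or below 0.1. Positions and sequences of the vault RNA genes came from GENCODE release 29. The sequence of 7SL RNA is not reported here. Intervals and floors cover counting error only.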

Additional observations from a re-analysis of the deposited data

Results flagged for a closer look

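VTRNA1-2 in KG1a cell rPAL had a library far from the others, replicate 3 at 0.978 CPM against 0.129 to 0.228 CPM in the other 3. This rests on 10 counts against 2 or 3. Over the groups of 4 libraries 24 sets of values were examined and this was the only one with such a gap, and chance alone singles out about 1 group in 20.

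The rPAL enrichment of VTRNA1-3 differed between KG1a sEV and KG1a cells by a fitted log2 value of -10.49 in the interaction test (edgeR, adjusted p = 0.049). In cells all 4 rPAL libraries were above all total libraries, and in sEV all 3 rPAL libraries were at 0. The rPAL enrichment of the lead 7SL entry URS000233BC28 differed between HL60 sEV and HL60 cells by -2.89 (edgeR, adjusted p = 0.047), with higher rPAL than total RNA in both sources, and the call was lost without the libraries that stand apart (-2.26, adjusted p = 0.12).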

How the results depend on the processing

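The counts of calls below are entries summed over the comparisons of a kind. For rPAL against total RNA, 10 7SL and 3 vault RNA calls became 2 and 1 with no filter. They became 0 and 2 in 1 fit of all 12 groups, and there was 1 vault RNA call with the replicate block. Of the 2 vault RNA calls in 1 fit of all groups, only VTRNA1-3 in KG1a sEV was kept from the 3. The other was gained, and both cell calls were lost. For vesicle against cell total RNA, 23 and 4 became 5 and 0 in 1 fit of all groups. For HL60 against KG1a, 4 and 1 became 2 and 0 with no filter and 0 and 0 in 1 fit of all groups, and the vault RNA call was lost without TMM. For the differences in enrichment, the 1 7SL call was 0 without TMM, with no filter, with DESeq2, in 1 fit of all groups, with the block and without the 3 libraries that stand apart, and the 1 vault RNA call was 0 in 1 fit of all groups and with the block. The cause was not tested.

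Leaving out 1 library gave 7 to 11 7SL and 2 to 4 vault RNA calls for rPAL, 13 to 24 and 2 to 4 for vesicles, 0 to 6 and 0 to 1 between lines, and 0 to 2 of each for the enrichment differences. Of 47 calls in all, 18 held in every such fit, 43 under DESeq2, 40 without TMM, 28 with no filter and 6 in 1 fit of all groups, and none changed sign under these settings. With the replicate block 39 held and 6 were gained, all in KG1a sEV against lEV, where same-numbered libraries deviated together. They also did in sEV total RNA of HL60 against KG1a, where the block changed no call. In the other comparisons the labels give only a number, and whether same-numbered libraries belong together is not known. The VTRNA1-3 value in HL60 lEV turned to -3.80 without rPAL replicate 3 and was 2.64 without rPAL replicate 2. Among values of single entries, 145 of 2236 alternatives turned the sign of a value that was called under neither setting. As shares, the mean difference of 0.0188 points for 7SL became 0.0786 and that of 0.00188 for vault RNA became 0.00397 with rRNA left out of the totals, and leaving out 1 library gave 0.00714 to 0.0285 and 0.000944 to 0.00271. Counts limit VTRNA1-2 and VTRNA2-1, which passed the filter in no comparison.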
